A study of Mus musculus with 4 samples.

Results

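The genes described here encode core proteins of the basement membrane and are 10 of the 32285 genes listed in the matrices. They are the laminin α chains Lama2, Lama4 and Lama5, the β chains Lamb1 and Lamb2, the γ chain Lamc1, the nidogens Nid1 and Nid2, perlecan (Hspg2) and agrin (Agrn). They were chosen by gene symbol, and each symbol stood for 1 identifier.

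Basement membranes are thin sheets of matrix that coat muscle fibres, Schwann cells (SCs), perineurial cells and the cells of vessel walls. A laminin is a trimer of an α, a β and a γ chain that polymerizes at the cell surface, and nidogens and perlecan link the laminin network to collagen IV. Lama2 is the main α chain of muscle fibre and SC laminin, and its loss causes a congenital muscular dystrophy with a peripheral neuropathy. Lama4, Lama5 and Lamb2 are known from the synaptic basement membrane of the neuromuscular junction, where agrin acts through LRP4 and MuSK to cluster acetylcholine receptors.

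The cells came from hindlimb muscle (gastrocnemius and tibialis anterior) of male mice aged 2 months, were profiled by single-cell RNA sequencing, and all carried the S100GFP-tg reporter, in which the S100B promoter drives GFP. The genotypes were S100GFPtg (WT) and S100GFPtg Sod1-/- (Sod1KO), 4 mice were pooled per genotype, and live cells of each pool were sorted into a GFP+ and a GFP- library. Each group was therefore 1 library, which leaves no animals to test over, and a genotype difference cannot be told apart from a difference between pools or preparations.

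After filtering, 4557 WT and 5925 Sod1KO cells were kept in the GFP+ libraries and 1638 WT and 5143 Sod1KO cells in the GFP- libraries, at medians between 8023.5 and 14668 UMIs per cell. Between 1 and 13 barcodes were shared by any pair of libraries. Sod1 itself was at 90.6 (WT) and 98.4 CPM (Sod1KO) among GFP+ cells, where CPM is UMIs per 1000000, and at 124 (WT) and 114 CPM (Sod1KO) among GFP- cells. Which part of the gene was deleted is not stated in what was read here, 3′ tags outside it check nothing, and so all directions below are those of the libraries as labelled. S100b, named for the protein whose promoter drives the reporter, was at 134 and 87.7 CPM in the GFP+ libraries and at 7.60 and 7.76 CPM in the GFP- libraries. Cells were put into 10 classes by marker genes, after a clustering from which the 10 genes and 49 other basement membrane genes were left out. Between 19.7% and 45.1% of the cells of a library fell into clusters that were left unnamed. Among these was a cluster of 414 barcodes from all 4 libraries, with a median of 1199.5 UMIs, that met 7 of 7 muscle fibre markers and was led by Tnnc2, Ckm and Myl1.

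Levels below are CPM of a class, the sum of a gene's UMIs over the cells of the class per 1000000 UMIs of that class. A UMI counts 1 captured molecule of a 3′ library, not the fragments along a transcript. Whether these levels depend on gene length was not tested. All intervals are 95% intervals and cover counting error only. Orders of levels below are among the 10 classes, without the unnamed clusters, 1 of which had higher levels of several genes (below). Of these classes in WT GFP+, the mesenchymal-like cells had the highest level for 3 genes (Lamb2, Lamc1 and Nid1) and the perineurial-like cells for 2 (Lama4 and Nid2). Pericyte-like, smooth muscle-like, endothelial-like, mSC-like (myelinating SC-like) and nonmyelinating SC-like cells had the highest level for 1 gene each. Macrophage-like cells had the lowest level for 6 of the 10 genes.

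**Figure D1:**
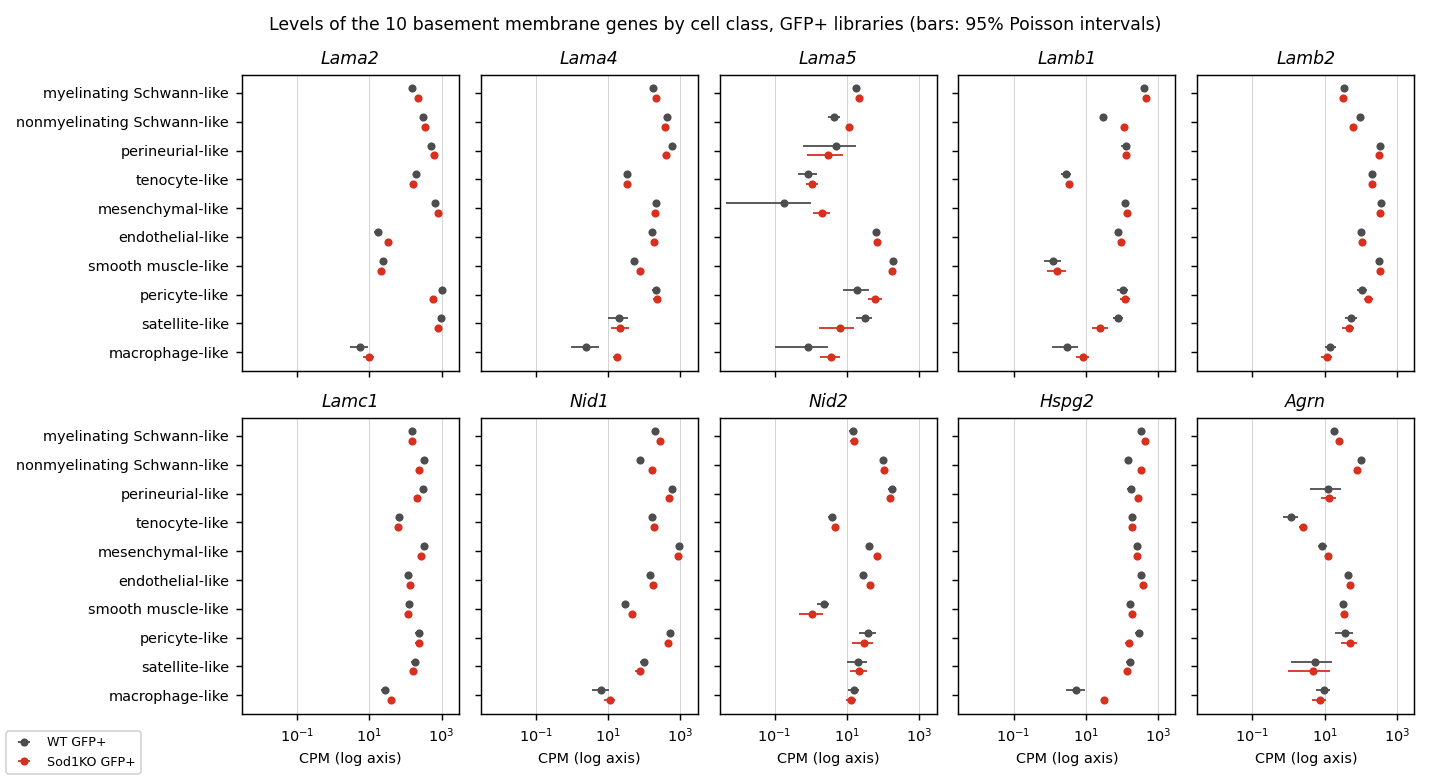
CPM of each gene (x axis, logarithmic) in the 10 cell classes (y axis) of the WT GFP+ (grey) and Sod1KO GFP+ (red) libraries, with 95% Poisson intervals as bars. Lamb1 stands at 407 CPM in myelinating and 29.4 CPM in nonmyelinating Schwann-like cells of WT, and Lama5 is highest in smooth muscle-like cells, at 193 CPM.

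Among the α chains, Lama2 (chr10:26981285-27617191, GRCm38.p6, as are all positions below) was highest in pericyte-like cells of WT GFP+, at 1034 CPM (932–1144), and in satellite-like cells, the muscle stem cells, at 946 CPM (866–1031). These intervals overlapped. Mesenchymal-like cells followed at 681 CPM (660–703), perineurial-like cells at 506 (439–580), nonmyelinating SC-like cells at 299 (286–314), tenocyte-like cells at 196 (189–203) and mSC-like cells at 157 (148–167), with no overlap between neighbours in this order. Smooth muscle-like cells at 23.5 CPM (20.9–26.4) and endothelial-like cells at 17.1 CPM (13.6–21.2) had overlapping intervals, and the macrophage-like cells were at 5.44 CPM (2.89–9.29). In Sod1KO GFP+ the mesenchymal-like cells came first, at 804 CPM (785–824), with satellite-like cells at 778 CPM (711–850). The pericyte-like cells had 566 CPM (489–651) there. These pericyte-like groups held 39 and 50 cells.

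Lama4 (chr10:38965515-39110188), an α chain known from vessels and nerves, was highest in perineurial-like cells, at 570 CPM (499–648) in WT GFP+ and 411 (378–447) in Sod1KO GFP+. Nonmyelinating SC-like cells came next in both libraries, at 414 CPM (398–430) and 364 CPM (353–376). The mSC-like cells had 175 CPM (165–185) and 208 (195–222), which overlapped the intervals of the endothelial-like cells at 159 (148–171) and 188 (176–201). A lymphatic cluster led by Ccl21a, Mmrn1 and Prox1 had 593 CPM (559–629) of Lama4 over its 105 cells in Sod1KO GFP-, against 245 CPM (239–251) in all endothelial-like cells of that library.

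Lama5 (chr2:180176373-180225904), the broadly used α chain of adult vessels and epithelia, was at 193 CPM (185–201) in smooth muscle-like cells of WT GFP+ and at 181 CPM (171–191) in those of Sod1KO GFP+. Endothelial-like cells followed, at 65.2 CPM (58.2–72.8) and 68.3 CPM (61.0–76.1). The mSC-like cells had 17.2 CPM (14.3–20.5) and 22.0 CPM (17.8–26.8), and the nonmyelinating SC-like cells 4.51 CPM (2.98–6.57) and 11.1 CPM (9.25–13.3). Mesenchymal-like cells of WT GFP+ had 1 UMI of Lama5.

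As shares of the α chain UMIs of a class, which do not depend on the class total, the classes fell into different patterns. In mSC-like cells of WT GFP+, Lama2 made up 45.0% (43.1–47.0) and Lama4 50.1% (48.1–52.0) of the α chain UMIs. Nonmyelinating SC-like cells had 41.7% (40.2–43.2) Lama2 and 57.7% (56.2–59.1) Lama4. Lama2 made up 94.9% (92.7–96.6) in satellite-like, 85.1% (83.8–86.2) in tenocyte-like and 76.7% (75.5–77.9) in mesenchymal-like cells. In endothelial-like cells Lama4 held 66.0% (63.2–68.7) and Lama5 27.0% (24.4–29.6), and in smooth muscle-like cells Lama5 held 72.0% (70.4–73.5). That smooth muscle share was 64.7% (62.6–66.8) in Sod1KO GFP+, a difference of −7.25 points (−9.82 to −4.70), and it differed by 2.61 points (−3.97 to 9.46) in GFP-.

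**Figure D2:**
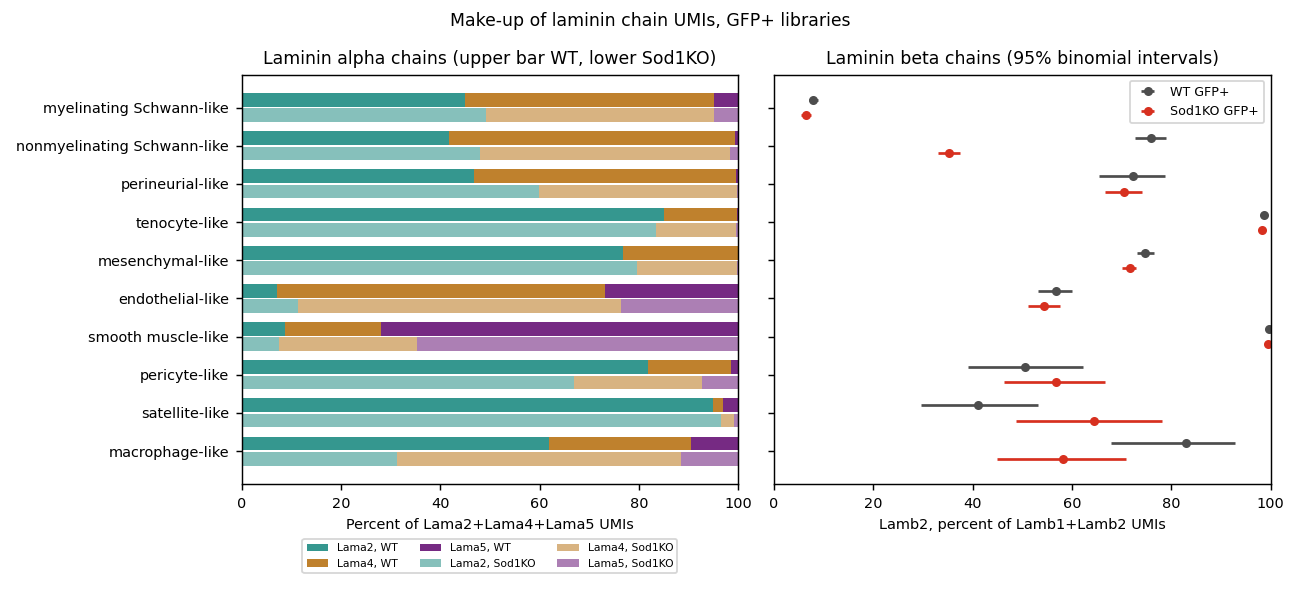
Left, shares (percent) of Lama2, Lama4 and Lama5 among their summed UMIs in each class of the GFP+ libraries, with WT as the upper and Sod1KO as the lower bar. Right, the share of Lamb2 among Lamb1 and Lamb2 UMIs with 95% binomial intervals, where nonmyelinating Schwann-like cells had 76.0% in WT and 35.2% in Sod1KO and the myelinating class stayed under 10%.

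The β chains Lamb1 (chr12:31265146-31329644) and Lamb2 (chr9:108479847-108490530) take the same place in the trimer, and their levels differed between the classes. The mSC-like cells had 407 CPM (392–422) of Lamb1 and 34.9 CPM (30.7–39.6) of Lamb2 in WT GFP+, and 454 CPM (434–474) and 31.0 CPM (26.1–36.7) in Sod1KO GFP+. Lamb2 thus made up 7.91% (6.99–8.91) and 6.40% (5.40–7.53) of their β chain UMIs. Smooth muscle-like cells stood at the other end, with 1.20 CPM (0.674–1.99) of Lamb1 and 322 CPM (312–332) of Lamb2 in WT GFP+, a Lamb2 share of 99.6% (99.4–99.8). In tenocyte-like cells the share was 98.6% (98.1–99.0). Perineurial-like cells at 72.4% (65.4–78.7), mesenchymal-like cells at 74.8% (73.1–76.5) and endothelial-like cells at 56.7% (53.2–60.0) lay between them. After the mSC-like cells, the perineurial-like cells at 125 CPM (93.2–165) and the mesenchymal-like cells at 119 CPM (110–128) of Lamb1 had overlapping intervals in WT GFP+, and their order was the other way round in Sod1KO GFP+, at 128 (110–149) and 135 (127–143). The highest levels of Lamb2, in mesenchymal-like, perineurial-like and smooth muscle-like cells at 353, 329 and 322 CPM, had overlapping intervals.

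Sequences at the 5′ ends of these β chains, and of Nid1 and Hspg2, whose levels went with those of Lamb1 between SC-like clusters (below), are shown because the genes differ in the cells that hold them. Each is the 250 bases before a transcript start in the RefSeq window table, 5′ to 3′, and all 4 genes lie on the plus strand. For Lamb1, Lamb2 and Hspg2 that start lies inside the gene span given in the text, so these windows include bases of the gene, and the Nid1 window ends before its gene. Capitals mark the GC box letters GGGCGG and the TEAD letters GGAATG on either strand. The windows are chr12:31265043-31265292 for Lamb1, chr9:108479612-108479861 for Lamb2, chr13:13437352-13437601 for Nid1 and chr4:137468553-137468802 for Hspg2 in GRCm38.p6, from RefSeq.
Lamb1: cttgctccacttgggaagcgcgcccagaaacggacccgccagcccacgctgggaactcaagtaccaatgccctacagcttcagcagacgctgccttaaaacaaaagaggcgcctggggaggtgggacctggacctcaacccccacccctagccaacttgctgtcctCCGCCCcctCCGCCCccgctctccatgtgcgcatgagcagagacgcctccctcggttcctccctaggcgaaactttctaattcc
Lamb2: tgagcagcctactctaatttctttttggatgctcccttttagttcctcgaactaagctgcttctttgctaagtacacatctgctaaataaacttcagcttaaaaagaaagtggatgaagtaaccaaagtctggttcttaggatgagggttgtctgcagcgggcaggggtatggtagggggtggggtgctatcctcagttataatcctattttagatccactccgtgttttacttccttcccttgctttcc
Nid1: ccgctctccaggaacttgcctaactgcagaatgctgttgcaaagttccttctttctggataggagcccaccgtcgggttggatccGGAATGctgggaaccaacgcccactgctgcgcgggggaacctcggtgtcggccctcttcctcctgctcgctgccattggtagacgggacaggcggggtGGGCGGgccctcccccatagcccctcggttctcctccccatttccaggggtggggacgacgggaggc
Hspg2: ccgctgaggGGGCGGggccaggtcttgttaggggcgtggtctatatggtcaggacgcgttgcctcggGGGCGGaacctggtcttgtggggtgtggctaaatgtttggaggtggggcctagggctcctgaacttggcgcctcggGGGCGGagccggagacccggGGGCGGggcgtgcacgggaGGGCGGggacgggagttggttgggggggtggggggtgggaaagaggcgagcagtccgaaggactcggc

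The Lamb1 window had 62.0% G and C and 2 GC boxes, and the Lamb2 window had 43.6% and 0. Nid1 had 1 GC box and 1 TEAD match, and Hspg2 had 5 GC boxes. Of all 32851 RefSeq windows of this length, 32.7% held a GC box and 12.6% the letters GGAATG. The AP-1 letters TGANTCA, in 6.75% of all windows, and the SOX letters ACAAAG, in 16.5%, were in 0 of these 4 windows on either strand. Windows were matched for 7 of the 10 genes, without Lama4, Lamc1 and Nid2. Of those not shown, Lama2 had 0 GC boxes and Lama5 had 4. The 2 windows of Agrn had 12 and 2 GC boxes, with 1 SOX match in each. Between the SC-like clusters (below) Agrn went with Lamb2 and Lama5 with Lamb1, so the number of GC boxes did not follow that split. These matches describe letters and not binding.

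Lamc1 (chr1:153218922-153332786), the γ chain of most laminins, ran from 332 CPM (317–348) in mesenchymal-like and 322 (308–337) in nonmyelinating SC-like cells to 65.3 (61.3–69.5) in tenocyte-like and 27.2 (21.0–34.6) in macrophage-like cells of WT GFP+. The intervals of neighbours overlapped down to the mSC-like cells, the sixth class at 156 (147–165), which did not overlap the smooth muscle-like cells at 125 (119–132).

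Of the nidogens, Nid1 (chr13:13437602-13512275) was highest in mesenchymal-like cells, at 904 CPM (879–929) for WT and 861 (841–882) for Sod1KO among GFP+ cells, and at 912 (844–984) for WT and 1090 (1070–1110) for Sod1KO among GFP- cells. Perineurial-like cells at 570 CPM (499–648) and pericyte-like cells at 506 (436–585) came next in WT GFP+, with overlapping intervals. Nid2 (chr14:19751257-19811787) had another order. It was highest in perineurial-like cells, at 174 CPM (136–220), and then in nonmyelinating SC-like cells, at 102 CPM (93.7–110). Its share of nidogen UMIs was 56.4% (53.4–59.4) in nonmyelinating SC-like cells of WT GFP+ and 6.77% (5.55–8.16) in mSC-like cells.

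Perlecan (Hspg2, chr4:137468751-137570630), the large proteoglycan of most basement membranes, was at 340 CPM (323–356) in endothelial-like and 335 (322–349) in mSC-like cells of WT GFP+, and 9 of the 10 classes lay between 150 and 340 CPM. Agrin (Agrn, chr4:156165290-156197533) was highest in nonmyelinating SC-like cells, at 101 CPM (93.1–109) in WT GFP+ and 76.5 CPM (71.3–81.8) in Sod1KO GFP+. Endothelial-like cells had 44.3 CPM (38.6–50.7) and 51.1 CPM (44.9–58.0), mSC-like cells 18.5 (15.4–21.9) and 24.9 (20.5–30.0), and tenocyte-like cells 1.17 (0.694–1.85) and 2.48 (1.90–3.19). The 3′ tags do not tell the neural splice forms of agrin, which cluster acetylcholine receptors, from the others.

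Shares of cells with at least 1 UMI were also read after each cell was thinned to 2000 UMIs. Lamb1 was found in 50.9% of mSC-like cells of WT GFP+ and in 6.38% of nonmyelinating SC-like cells. Macrophage-like cells, which should lack most of these genes, gave 0% for Lamb1, Lama4 and Hspg2 and 0.806% for Lama2. For Lamc1 and Nid2 they gave 7.26% and 5.65%, and the 2.15% of mSC-like cells with Nid2, not above that share, is not read as expression. The levels of Nid2 in these classes, 14.4 (11.7–17.4) and 15.5 (10.9–21.3) CPM, had overlapping intervals. Without thinning, 84.2% of mSC-like and 17.6% of nonmyelinating SC-like cells had Lamb1. The medians were 6237.5 UMIs in mSC-like, 12142 in nonmyelinating SC-like and 17404 in macrophage-like cells.

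Levels also differed between clusters of a class, in separate libraries. Endothelial-like cells held a cluster led by Car4 and Gpihbp1 and a cluster led by Gkn3, Gja5 and Sema3g, genes known from capillaries and from arteries. Hspg2 was at 447 CPM in the Gpihbp1 cluster and 185 CPM in the Gkn3 cluster of WT GFP+, and the log2 ratio was 1.28 (1.05 to 1.51) there, 1.70 (1.42 to 2.00) in Sod1KO GFP+, 1.29 (1.11 to 1.48) in WT GFP- and 1.40 (1.30 to 1.51) in Sod1KO GFP-. Lama4, Lamb1, Lamc1, Nid1 and Nid2 were likewise higher in the Gpihbp1 cluster in 4 of 4 libraries, with log2 ratios from 0.47 to 2.45. Lamb2 was lower there in 4 of 4 libraries, with log2 ratios between −1.16 and −0.51, as was Agrn, between −1.12 and −0.41. Lama2 was also lower in 4 of 4, at levels that did not exceed 26.8 CPM in either cluster. Lama5 gave log2 ratios between −0.51 and 0.16, in both directions.

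In mesenchymal-like cells a cluster led by Myoc, Fst and Dkk2 was set against a cluster led by Inmt, Gdf10 and Rbp4. Lamb1 was at 149 CPM in the Myoc and 17.8 CPM in the Inmt cluster of WT GFP+, at 175 and 34.2 in Sod1KO GFP+ and at 296 and 36.4 in Sod1KO GFP-. The log2 ratios were 3.07 (2.52 to 3.67), 2.36 (2.03 to 2.70) and 3.03 (2.42 to 3.70). Lama2, Lama4, Lamc1, Nid1, Nid2 and Hspg2 were higher in the Myoc cluster in 3 of 3 libraries, and Lamb2 was lower in 3 of 3, with log2 ratios between −0.60 and −0.45. In both pairs of clusters, then, Lamb2 went opposite to Lamb1. The WT GFP- library held 6 cells of the Inmt cluster and was not used here.

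**Figure D3:**
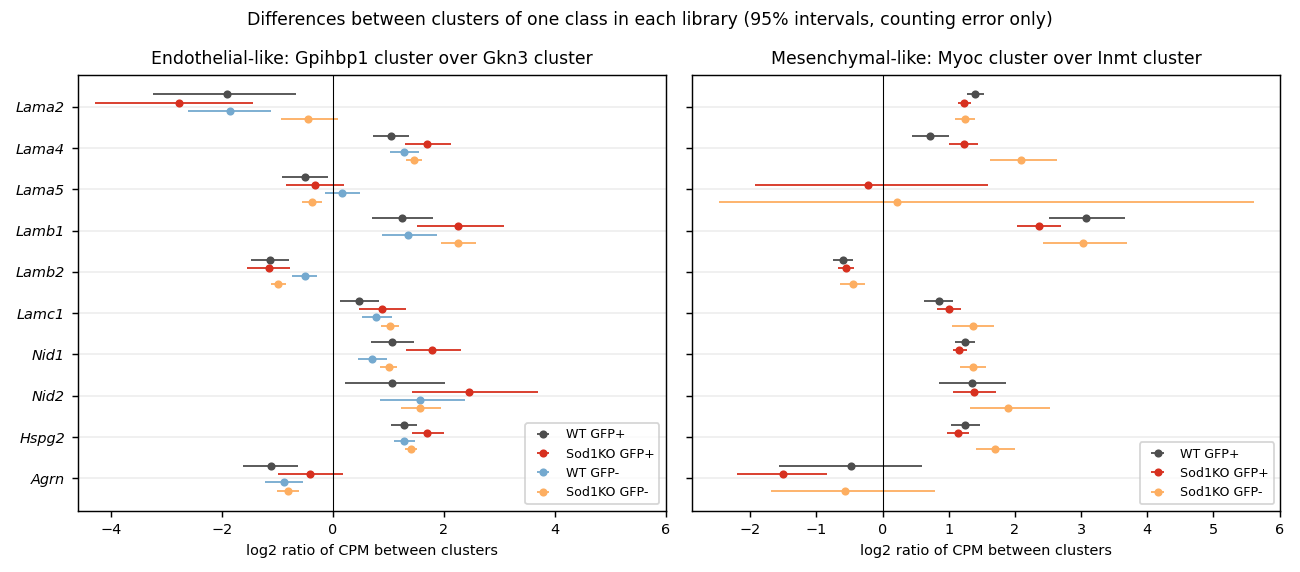
Log2 ratios of CPM (x axis) between clusters of the endothelial-like class (left, Gpihbp1 cluster over Gkn3 cluster, 4 libraries) and of the mesenchymal-like class (right, Myoc cluster over Inmt cluster, 3 libraries), with 95% intervals. Lamb1 and Hspg2 lie above 0 and Lamb2 below 0 in every library plotted.

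An unnamed cluster led by Saa1, Cxcl14 and Col9a2 had 1603 CPM (1533–1674) of Lama2, 604 (561–648) of Lamb1, 641 (597–687) of Lamc1, 1217 (1156–1280) of Nid1 and 919 (866–973) of Hspg2 over 77 cells of WT GFP+. For each of these genes this was above the highest class of that library. In the 309 cells of that cluster in Sod1KO GFP+ the levels were 1344, 360, 343, 879 and 694 CPM. Within the tenocyte-like class, a small cluster led by Bmpr1b and Esr2 had 2246 CPM (2062–2441) of Lama2 over 27 cells in WT GFP+, 3057 (2837–3290) over 40 cells in Sod1KO GFP+ and 2647 (2457–2847) over 30 cells in Sod1KO GFP-. The main tenocyte-like cluster, led by Wif1 and Angptl7, had 163 and 140 CPM in WT and Sod1KO of GFP+. The median was 6173 UMIs per cell in the small cluster and 24979 in the main one. The part of cell quality in this difference was not tested.

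Sod1KO was then set against WT within each class, in GFP+ for 10 classes and in GFP- for the 4 that had at least 30 cells in both libraries. A gene was counted where the libraries differed by 1.5-fold or more (a log2 ratio of 0.58 in size) and held at least 30 UMIs together. By this rule 17 of the 89 pairs of a gene and a class in GFP+ were higher in the library labelled Sod1KO and 5 were lower. In GFP-, 3 of 36 were higher and 1 was lower. Over all genes, the share past 1.5-fold in either direction ran from 10.5% to 27.6% in the GFP+ classes and from 21.6% to 28.3% in the GFP- classes, so the share of the pairs in GFP+ lay within the range of all genes and that in GFP- below it. Lamc1 was counted in 0 of the 10 GFP+ and 0 of the 4 GFP- classes. Outside the classes, in the unnamed cluster led by Saa1, it gave −0.90 (−1.03 to −0.77) in GFP+, and Lamb1 gave −0.75 (−0.88 to −0.61). Other genes tested there were within 1.5-fold, which 23.6% of all genes passed. In the cluster with muscle fibre markers Lamc1 gave 1.53 (0.27 to 2.99) in GFP+, from 7 and 24 UMIs, and −1.21 (−2.31 to 0.02) in GFP-.

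**Figure D4:**
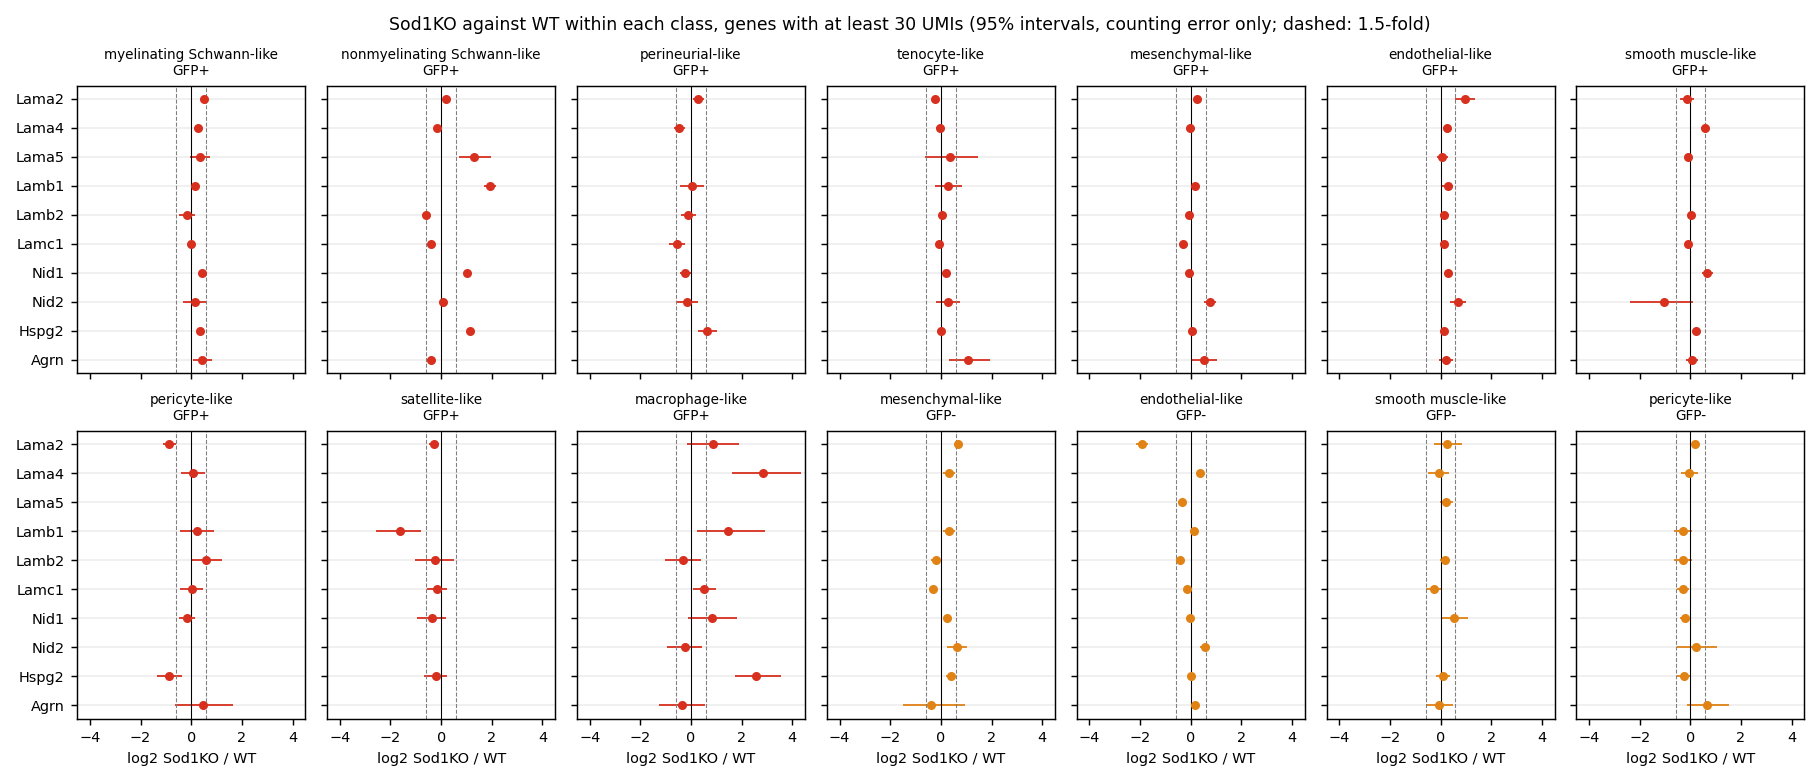
Log2 ratio of Sod1KO over WT (x axis) of the 10 genes (y axis) in each class and sort, for genes with at least 30 UMIs, with 95% intervals that cover counting error only. Dashed lines mark 1.5-fold, which 0 genes pass in myelinating and 5 in nonmyelinating Schwann-like cells, where Lamb1 at 1.94 is farthest.

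In mSC-like cells 0 of the 10 genes passed 1.5-fold, where 10.8% of all genes tested did. Lama2 was at 157 CPM (148–167) in WT and 223 CPM (209–238) in Sod1KO, a log2 ratio of 0.50 (0.38 to 0.63). Nid1 gave 0.43 (0.32 to 0.55), Agrn 0.43 (0.05 to 0.81), Hspg2 0.35 (0.26 to 0.44) and Lama4 0.25 (0.12 to 0.37). Lamc1 gave 0.00 (−0.13 to 0.14) and Lamb2 −0.17 (−0.48 to 0.14). The intervals of 6 genes left out 0, and all 6 were higher in Sod1KO. The share of all genes whose intervals left out 0 was not computed, so this count has no background beside it. The median of the 10 genes was 0.30, beside −0.03 over all genes tested. The Lama2 share of α chain UMIs differed by 4.23 points (1.29 to 7.16). An unnamed cluster led by Lgals7, Tenm2 and Moxd1 lay outside this class. It met 12 of 12 myelinating markers and perineurial markers as well, and held 317 WT and 312 Sod1KO cells of GFP+. Hspg2 was at 265 and 432 CPM there (0.70, 0.62 to 0.79). The other genes were within 1.5-fold in that cluster, where 19.7% of all genes tested passed.

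In nonmyelinating SC-like cells 5 of the 10 genes passed 1.5-fold, where 24.6% of all genes tested did. Lamb1 was at 29.4 CPM (25.2–34.1) in WT and 113 CPM (107–119) in Sod1KO, a log2 ratio of 1.94 (1.71 to 2.18). Hspg2 was at 150 and 327 CPM (1.13, 1.02 to 1.23), Nid1 at 78.6 and 162 CPM (1.04, 0.89 to 1.19) and Lama5 at 4.51 and 11.1 CPM (1.30, 0.69 to 1.96). Lamb2 was lower, at 93.0 CPM (85.4–101) against 61.3 CPM (56.7–66.1), a log2 ratio of −0.60 (−0.77 to −0.44). The other genes were within 1.5-fold, with Lamc1 at −0.40, Agrn at −0.40, Lama4 at −0.18, Nid2 at 0.07 and Lama2 at 0.21. The Lamb2 share of β chain UMIs was 76.0% (72.7–79.0) in WT and 35.2% (33.0–37.4) in Sod1KO, a difference of −40.8 points (−44.4 to −36.9). Without doublet removal Lama5 gave 0.53.

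The libraries held this class in different proportions of its clusters. A cluster led by Ucn2, Olig1, Btc and Ngfr made up 60 of the 381 cells in WT (15.7%) and 578 of the 886 cells in Sod1KO (65.2%). A cluster led by Bche, Slitrk3 and Ajap1 made up 308 (80.8%) and 220 (24.8%). A small cluster led by Cfap299 and Epha5 held the other 13 and 88 cells. With 1 library per group, a cluster mostly of 1 library cannot be told apart from a feature of that library.

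The clusters differed in these genes within each genotype. In WT the Ucn2 cluster had 223 CPM (183–269) of Lamb1 and the Bche cluster 12.1, a log2 ratio of 4.20 (3.75 to 4.67), and in Sod1KO 154 CPM (145–164) and 21.0, a log2 ratio of 2.87 (2.52 to 3.25). Lama5 differed by 3.16 (1.93 to 4.35) and 2.98 (1.81 to 4.46), Nid1 by 1.74 (1.42 to 2.06) and 1.26 (1.07 to 1.45) and Hspg2 by 1.44 (1.19 to 1.68) and 1.31 (1.18 to 1.45). The Bche cluster had the higher levels of Lamb2, Lama4, Lamc1 and Agrn in both libraries. Agrn was at 51.2 CPM in the Ucn2 and 106 CPM in the Bche cluster of WT, and at 62.1 and 113 CPM in Sod1KO. The Lamb2 share of β chain UMIs was 14.2% (8.62–21.5) in the Ucn2 and 89.1% (86.3–91.4) in the Bche cluster of WT.

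**Figure D5:**
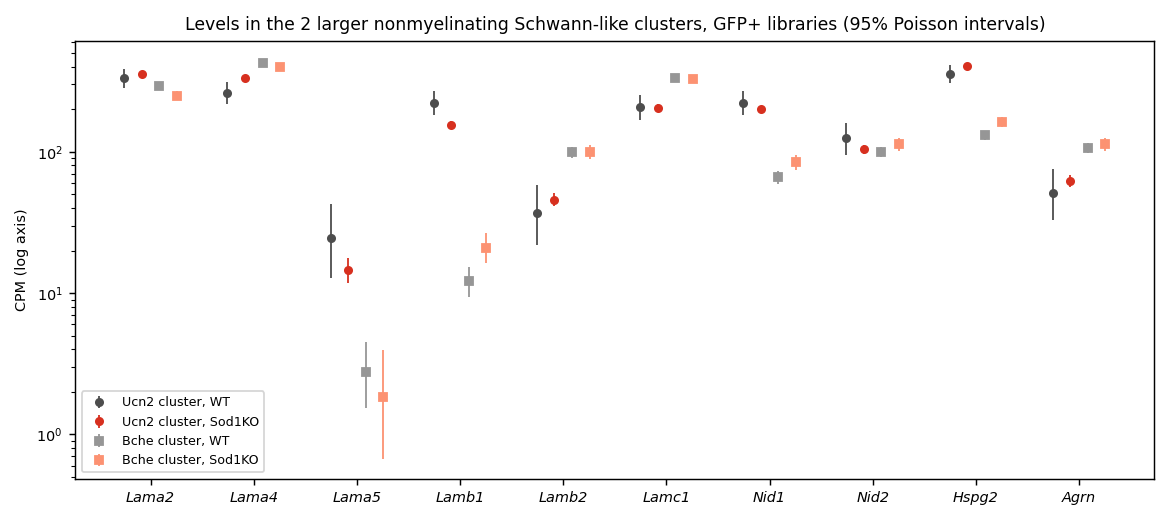
CPM (y axis, logarithmic) of the 10 genes in the Ucn2 cluster (circles) and the Bche cluster (squares) of the WT (greys) and Sod1KO (reds) GFP+ libraries, with 95% Poisson intervals. Lamb1 is at 223 and 154 CPM in the Ucn2 cluster and at 12.1 and 21.0 CPM in the Bche cluster.

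Within the Ucn2 cluster, Sod1KO over WT gave log2 ratios of −0.53 (−0.82 to −0.24) for Lamb1, −0.76 (−1.63 to 0.23) for Lama5, −0.14 (−0.42 to 0.16) for Nid1, 0.18 (−0.04 to 0.41) for Hspg2 and 0.31 (−0.37 to 1.09) for Lamb2. Within the Bche cluster it gave 0.80 (0.29 to 1.31) for Lamb1, 0.35 (0.12 to 0.58) for Nid1, 0.30 (0.14 to 0.47) for Hspg2 and 0.01 (−0.19 to 0.21) for Lamb2. Lamb1 was thus lower in Sod1KO in the Ucn2 cluster and higher in the Bche cluster, beside the 1.94 of the class. These within-cluster values were added after the values of the class were seen. The WT levels of the 3 clusters were also weighted by each cluster's share of the class UMIs, not of its cells, in Sod1KO. The weighting gave 151 CPM of Lamb1, 167 of Nid1 and 278 of Hspg2, beside the 113, 162 and 327 CPM measured in Sod1KO. For Lama5 it gave 16.9 CPM beside 11.1, and for Lamb2 54.0 CPM beside 61.3.

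Of the 49 other basement membrane genes, 39 had enough UMIs in nonmyelinating SC-like cells, and 12 were higher and 5 lower in Sod1KO. Of all genes tested in this class, 24.6% passed in either direction. Egflam, which encodes pikachurin, a ligand of dystroglycan, was at 20.4 and 112 CPM in WT and Sod1KO (2.46, 2.19 to 2.74), Col18a1, which encodes collagen XVIII, at 43.0 and 231 CPM (2.43, 2.24 to 2.62) and Col6a1 at 23.4 and 98.8 CPM (2.08, 1.82 to 2.34). The integrin chain Itga7, a laminin receptor, was at 5.85 and 20.3 CPM (1.79, 1.27 to 2.35), and Pxdn, which encodes peroxidasin, an enzyme that crosslinks collagen IV, at 10.5 and 35.6 CPM (1.75, 1.37 to 2.16). These genes were not read within the clusters, whose proportions in the class differed between the libraries. In mSC-like cells 4 of 39 were higher and 4 lower (10.8% of all genes passed), among them the collagen IV chain Col4a4 at 8.46 and 2.72 CPM (−1.64, −2.67 to −0.73). The median log2 ratio of the list was 0.08 in nonmyelinating SC-like and 0.05 in mSC-like cells, beside −0.03 over all genes in each.

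In perineurial-like cells, which ensheath nerve fascicles, 1 of 8 genes tested passed 1.5-fold (27.6% of all genes), Hspg2 at 179 CPM (140–225) in WT and 278 CPM (251–308) in Sod1KO, a log2 ratio of 0.63 (0.27 to 1.02). Without doublet removal it gave 0.57, under 1.5-fold. Lamc1 gave −0.57 (−0.88 to −0.25) and Lama4 −0.47 (−0.69 to −0.24), and the Lama2 share of α chain UMIs differed by 13.0 points (7.65 to 18.3). The WT group held 42 cells. Between the sorts of the Sod1KO pool, Lama2 was at 616 CPM (575–659) in GFP+ and 270 CPM (249–292) in GFP-, and Lamb2 at 307 CPM (278–338) and 669 CPM (636–704). Of the other basement membrane genes, 5 of 35 were higher and 9 lower, with Itgb4, a laminin receptor chain, at 525 and 260 CPM (−1.01, −1.26 to −0.76).

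In tenocyte-like cells 1 of 10 genes passed (11.2% of all genes), and this was Agrn at 1.17 and 2.48 CPM (1.09, 0.31 to 1.93), from 18 and 61 UMIs. Lama2 gave −0.22 (−0.29 to −0.15). The list of other genes had 3 higher and 2 lower of 46.

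In mesenchymal-like cells Nid2 was higher in Sod1KO in both sorts. It was at 40.2 CPM (35.1–45.8) in WT and 68.1 CPM (62.5–74.1) in Sod1KO of GFP+, a log2 ratio of 0.76 (0.53 to 0.99), and at 82.8 CPM (63.2–107) and 127 CPM (121–134) of GFP-, a log2 ratio of 0.62 (0.25 to 1.02). It was the 1 gene of 9 that passed in GFP+ (12.2% of all genes). In GFP- 2 of 9 passed (28.3% of all genes), the other being Lama2 at 820 and 1295 CPM (0.66, 0.54 to 0.78), which gave 0.24 (0.18 to 0.30) in GFP+. By the mean of per-cell CPM, Nid2 and Lama2 gave 0.51 and 0.52 in GFP-, under 1.5-fold. The Myoc cluster made up 23.1% and 35.0% of the class in WT and Sod1KO of GFP+. Within it Nid2 gave 0.59 (0.32 to 0.87), and in the Inmt cluster 0.56 (0.04 to 1.10). The WT GFP- group held 42 cells. Of the other basement membrane genes, 9 of 46 were higher and 1 lower in GFP+, and 8 of 46 were higher and 5 lower in GFP-.

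In endothelial-like cells Nid2 was at 27.2 CPM (22.8–32.3) in WT and 44.2 CPM (38.4–50.6) in Sod1KO of GFP+, a log2 ratio of 0.70 (0.38 to 1.02), and at 29.0 CPM (25.5–32.9) and 43.0 CPM (40.5–45.6) of GFP-, a log2 ratio of 0.57 (0.37 to 0.77). Within the Gpihbp1 cluster the log2 ratios of Nid2 were 1.22 (0.76 to 1.70) in GFP+ and 0.57 (0.33 to 0.82) in GFP-, and those of Lamb1 0.52 (0.22 to 0.83) and 0.51 (0.34 to 0.68). In all, 2 of 10 genes passed in GFP+ (11.4% of all genes) and 1 of 10 in GFP- (23.0% of all genes). Lama4 was higher in both sorts, by 0.24 (0.10 to 0.38) and 0.38 (0.30 to 0.46), within 1.5-fold.

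The other gene that passed was Lama2, in opposite directions. It was at 17.1 and 33.0 CPM in GFP+ (0.95, 0.55 to 1.35) and at 39.8 and 10.4 CPM in GFP- (−1.94, −2.18 to −1.70). In WT GFP-, 75.0% of its UMIs came from 123 cells of a cluster led by Grp, Sfrp2 and Plau that held 2 cells in Sod1KO GFP-. Without clusters of which 1 library held over 80%, after scaling by the kept cells of each library, the ratio in GFP- was 0.21. Without doublet removal it was 0.00. By the mean of per-cell CPM the ratio in GFP+ was 0.48. In GFP+ a cluster led by Esm1, Exoc3l2 and Plvap, 40 of the 362 cells in WT and 67 of the 336 in Sod1KO, held 57.8% and 84.6% of the Lama2 UMIs, at 38.4 and 81.9 CPM, while the Gpihbp1 cluster was at 4.59 and 3.90 CPM. The 17 mesenchymal marker genes summed to 4206 CPM in endothelial-like cells of WT GFP- and to between 1424 and 2092 CPM in those of the other libraries, 0 or 1 of the 17 were at 0 in a library, and their part in the result was not tested. In the Gpihbp1 cluster alone Lama2 was at 6.18 and 7.36 CPM in GFP-. Among the other basement membrane genes, 3 of 39 were higher and 2 lower in GFP+, and 7 of 46 were higher and 12 lower in GFP-.

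In smooth muscle-like cells 3 of 9 genes passed in GFP+ (10.5% of all genes). Lama4 was at 51.6 CPM (47.7–55.8) and 77.5 CPM (71.3–84.1), a log2 ratio of 0.59 (0.42 to 0.75), and Nid1 at 29.0 CPM (26.1–32.1) and 45.9 CPM (41.2–51.1), a log2 ratio of 0.66 (0.45 to 0.88). Nid1 gave 0.08 when cells needed at least 1000 genes and less than 5% mitochondrial UMIs, and Lama4 gave 0.48 without doublet removal. Nid2 was at 2.25 and 1.08 CPM, from 28 and 8 UMIs (−1.05, −2.40 to 0.12). The genes at the highest levels there, Lama5 (−0.09, −0.19 to 0.01) and Lamb2 (0.03, −0.04 to 0.10), were within 1.5-fold. In GFP- 0 of 8 passed (21.6% of all genes), with Nid1 at 0.54 (0.05 to 1.07) and Lama4 at −0.08 (−0.48 to 0.35). Of the other basement membrane genes, 12 of 41 were higher and 0 lower in GFP+, with Itga6, a laminin receptor chain, at 1.53 and 6.91 CPM, whereas 6 of 33 were higher and 5 lower in GFP-.

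In pericyte-like cells 3 of 8 genes passed in GFP+ (25.6% of all genes) and 1 of 9 in GFP- (24.1% of all genes). Lama2 and Hspg2 were lower in GFP+, at 1034 and 566 CPM (−0.87, −1.13 to −0.62) and at 287 and 157 CPM (−0.87, −1.37 to −0.38), and gave 0.18 (0.03 to 0.33) and −0.27 (−0.52 to −0.01) in GFP-. Lamb2 in GFP+ (0.59, −0.03 to 1.22) and Agrn in GFP- (0.65, −0.13 to 1.51) passed with intervals that included 0. Lamb2 turned to −0.06 without doublet removal and to −0.06 at clustering resolution 2. In GFP- the class sat in different clusters, since a cluster led by Slc6a2 and Shcbp1l held 25 of the 77 WT and 0 of the 201 Sod1KO cells. Within the cluster that held all others, led by Abcc9 and Kcnj8, Lama2 gave 0.02 (−0.14 to 0.17), Hspg2 −0.15 (−0.42 to 0.14) and Agrn 0.56 (−0.26 to 1.47) in GFP-, and Lama2 gave −0.92 (−1.19 to −0.65) in GFP+. An unnamed cluster outside the class met 8 of 8 pericyte markers and endothelial markers as well, with 70 WT and 50 Sod1KO cells in GFP+. There Lama2 was at 303 and 298 CPM (−0.02, −0.23 to 0.18) and Hspg2 at 426 and 494 CPM (0.21, 0.05 to 0.38). Of the other basement membrane genes, 1 of 20 was higher and 2 lower in GFP+, and 1 of 33 was higher and 6 lower in GFP-.

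In satellite-like cells 1 of 6 genes passed (23.1% of all genes), Lamb1 at 78.2 and 25.1 CPM (−1.64, −2.57 to −0.78), from 43 and 16 UMIs. In WT 1 of the 38 cells held at least 50% of those UMIs, and the mean of per-cell CPM gave a log2 ratio of −0.12. Of the other basement membrane genes, 1 of 23 was higher and 7 were lower.

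In macrophage-like cells 5 of 9 genes passed (16.1% of all genes), all higher in Sod1KO, at low levels. Hspg2 was at 5.44 CPM (2.89–9.29) and 32.6 CPM (26.5–39.6), a log2 ratio of 2.58 (1.74 to 3.54), and Lama4 at 2.51 and 17.9 CPM (2.84, 1.62 to 4.34). Lamb1, Lama2 and Nid1 gave 1.48, 0.85 and 0.82, and without doublet removal 0.52, 0.07 and 0.42. Lama2 turned to −0.29 by the mean of per-cell CPM. In GFP-, where WT held 24 macrophage-like cells and no ratio was taken, the levels lay the other way, with Hspg2 at 181 (145–222) CPM in WT and 10.3 (4.96–19.0) in Sod1KO, Lama4 at 76.4 and 9.30 CPM, Nid1 at 52.2 and 4.13 CPM, and Lamb1 and Lama2 at 28.1 and 12.1 CPM in WT and without a UMI in Sod1KO. Of the other list, 9 of 24 genes were higher and 3 lower, among them the collagen IV chains Col4a1 at 32.6 and 101 CPM and Col4a2 at 19.2 and 61.5 CPM. The part of RNA from other cells in these values was not tested. Subtracting the macrophage-like level of a library from its other classes gave 13 higher and 8 lower pairs in GFP+, beside 17 and 5.

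Over all kept cells, where fewer cells of a type and less RNA per cell cannot be told apart, 1 of 10 genes passed in GFP+ (16.6% of all genes) and 2 in GFP- (29.2% of all genes). Lama5 was at 45.9 and 27.1 CPM in WT and Sod1KO of GFP+, a log2 ratio of −0.76 (−0.84 to −0.68). With at least 1000 genes and less than 5% mitochondrial UMIs required of a cell, 0 of the 10 genes passed in GFP+. The smooth muscle-like cells, in which Lama5 was highest, were 557 of 4557 cells in WT and 396 of 5925 in Sod1KO. In GFP-, Lama2 (0.98, 0.93 to 1.03) and Nid2 (0.68, 0.56 to 0.81) were higher in Sod1KO, and mesenchymal-like cells were 42 of 1638 cells in WT and 771 of 5143 in Sod1KO. Of the other basement membrane genes, 0 of 48 were higher and 6 lower in GFP+, and 16 of 48 were higher and 3 lower in GFP-.

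The patterns most like those of the 10 genes were read from Pearson's r of log2(CPM + 10) over 26 groups of a class and a library with at least 50 cells, among 12107 genes. Groups share libraries and depth, and r is given as a description. For Lama2 the most alike were Eda (0.907) and Col5a2 (0.902), for Lama4 Lysmd2 (0.874) and Mrps11 (0.874), and for Lama5 Mob2 (0.940) and Arhgef7 (0.937). For the β chains they were Hecw2 (0.866) and B230354K17Rik (0.858) for Lamb1 and Stub1 (0.941) and Triqk (0.909) for Lamb2, and for Lamc1 B9d1 (0.882) and Dnajc10 (0.877). Nid1 had Fbn1 (0.912) and Gm49767 (0.887), and Nid2 Plscr4 (0.905) and Dynlt1f (0.867). Hspg2 had Nfib (0.913) and Nckap1 (0.898), and Agrn Ppp2r5e (0.899) and Spin1 (0.884).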

How the data were processed

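The deposited matrices hold UMI counts per gene and cell barcode, which the authors made with Cell Ranger from 10x 3′ libraries. The file headers name version 7.1.0 and the labels the mm10 build. The matrices were used unchanged.

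Barcodes with at least 200 genes and less than 10% mitochondrial UMIs were kept, and simulated doublets scored among 50 neighbours were used to remove 0.8% of cells for each 1000 barcodes. All 4 libraries were clustered together (2000 variable genes, 30 principal components, 20 neighbours, Leiden resolution 1; 36 clusters). Clusters were named where at least 3 markers of 1 of 22 lists were met, with limits set after a look at the data. A class was compared where both libraries held at least 30 cells. Intervals were exact Poisson (CPM), Clopper-Pearson (shares), Newcombe (differences of shares) and conditional binomial (ratios). In ratios a library without a UMI entered with 3 UMIs. With 1 library per group no p-value was computed.

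The 10 genes, the 49 other basement membrane genes and the marker lists were chosen with earlier results of these data known. Of the 49, at most 6 per class were named, largest ratio first among those past 1.5-fold with an interval that left out 0, and for each of the 10 genes the 2 most alike. Alternatives were no doublet removal, stricter cell filters, another resolution, clustering with the basement membrane genes, per-cell means, median-of-ratios scaling, subtraction of the macrophage-like level, other UMI minimums, 2-fold and leaving out clusters of which 1 library held over 80%. For that 80%, the cells of a cluster in each library of a sort were first divided by the kept cells of the library. Gene positions and start windows came from RefSeq (GRCm38.p6), matched by symbol. The last 1000 bases of 6 of the 10 genes have a neighbour on the opposite strand, and 0 have one on the same strand. Clustering ran with leidenalg 0.10.2 and igraph 0.11.9, and the rest with scikit-learn 1.9.0, scipy 1.17.1, numpy 2.4.6 and pandas 2.3.3 in Python 3.11.15.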

Additional observations from a re-analysis of the deposited data

Results flagged for a closer look

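For 3 pairs of a gene and a class, the log2 ratio of Sod1KO over WT lay on opposite sides of 0 in the GFP+ and the GFP- libraries, with intervals that left out 0 in each. Lama2 in endothelial-like cells gave 0.95 in GFP+ and −1.94 in GFP-, and the second value was 0.21 without clusters held by 1 library. Lama2 in pericyte-like cells gave −0.87 in GFP+ and 0.18 in GFP-. Within the cluster led by Abcc9 and Kcnj8, which held 52 of the 77 WT and all 201 Sod1KO cells of that class in GFP-, the second value was 0.02 (−0.14 to 0.17). Nid1 in mesenchymal-like cells gave −0.07 in GFP+ and 0.26 in GFP-. Within the clusters of that class in GFP+ it gave 0.21 (Myoc cluster), 0.29 (Inmt cluster) and 0.02 (a cluster led by Sbsn and Pi16), so the opposite direction was not seen within clusters. The Inmt cluster made up 64.2% of the class in WT and 54.7% in Sod1KO. The difference between the sorts was not tested, since each group was 1 library.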

How the results depend on the processing

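No paired analysis was possible because each group held 1 library. No replicate could be left out for the same reason. At 2-fold in place of 1.5-fold, the pairs of a gene and a class went from 17 higher and 5 lower to 8 and 2 in GFP+ and from 3 higher to 0 in GFP-, and those of the other basement membrane genes from 59 and 35 to 34 and 13 in GFP+ and from 22 and 28 to 8 and 13 in GFP-. The lower pairs in GFP+ were 2 when cells needed at least 1000 genes and less than 5% mitochondrial UMIs (then 0 of the 10 genes passed over all cells of GFP+), and 8 with the macrophage-like level subtracted, where the lower pairs of the other genes were 60. The higher pairs in GFP- were 5 by the mean of per-cell CPM, 5 with median-of-ratios scaling and 1 without clusters held by 1 library. The 1 lower pair in GFP- became 0 without doublet removal or without such clusters, and 3 with a minimum of 10 UMIs or none, and the lower pairs of the other genes were 18 without doublet removal. The difference in Lamb2 share in nonmyelinating SC-like cells was −33.3 points without doublet removal and −6.54 without clusters held by 1 library, which left the Bche cluster alone. The class with the highest level stayed for 6 of the 10 genes by the mean of per-cell CPM.

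Ratios that turned direction included Lama2 in endothelial-like cells of GFP-, at 0.21 without clusters held by 1 library. Without doublet removal that ratio was 0.00, in neither direction. Lama2 in macrophage-like cells turned to −0.29 by the mean of per-cell CPM. Lamb2 in pericyte-like cells of GFP+ turned to −0.06 without doublet removal and to −0.06 at clustering resolution 2. In nonmyelinating SC-like cells, leaving out clusters held by 1 library left the Bche cluster alone. Lamb2 was at 0.01 in the Bche cluster and 0.31 within the Ucn2 cluster. Lama5, Lamb1 and Nid1 were at −0.76, −0.53 and −0.14 within the Ucn2 cluster. The within-cluster values were chosen after seeing the data. The subtraction was run for GFP+ alone, since WT GFP- held 24 macrophage-like cells. Where no value shows it, the cause was not tested. Levels of a few CPM rest on few UMIs, and 1 library per group gives no spread between animals.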
